A study of Mus musculus with 56 samples.

Results

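The genes described here encode enzymes that attach glucuronic acid or sulfate to foreign and endogenous compounds in the mouse. 9 genes were listed by name: the UDP-glucuronosyltransferases Ugt1a1, Ugt1a6a, Ugt2b5, Ugt2b34 and Ugt2a3, and the cytosolic sulfotransferases Sult1a1, Sult1b1, Sult1c2 and Sult1d1. A probe could be named through a RefSeq transcript accession for 8 of the 9, out of 20018 genes named on the arrays, and Ugt1a1 had no probe named here. Their expression was measured on 56 two-colour arrays in 3 organs (lung, liver and forestomach) taken from male mice of about 14 weeks of the MutaMouse strain, which carries a transgene for scoring mutations. The vehicle controls (D0) received olive oil by daily oral gavage for 28 days, and the other mice received the same oil with chrysene, a hydrocarbon of fused aromatic rings. The daily chrysene dose per kg body weight was 17.5 mg in D1, 50 mg in D2 and 150 mg in D3. All tissues were collected 72 hours after the last dose. Liver and forestomach had 5, 5, 4 and 5 arrays in D0, D1, D2 and D3, and lung had 5, 5, 3 and 5. Each array carried the RNA of 1 tissue of 1 mouse, labelled with Cy5, beside a commercial mouse reference RNA labelled with Cy3, so every level below is a log2 ratio of tissue over reference. RNA came from random sections of each organ, so that a change in the cells of a section and a change in the RNA per cell cannot be told apart.

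Glucuronidation and sulfonation are the conjugation steps of xenobiotic metabolism. A hydrocarbon that has been oxidised by cytochromes P450 carries hydroxyl groups, to which UDP-glucuronosyltransferases of the endoplasmic reticulum transfer glucuronic acid from UDP-glucuronic acid and sulfotransferases of the cytosol transfer sulfate from the donor PAPS. Most conjugates are more water-soluble and are exported, but sulfonation of benzylic alcohols of some polycyclic aromatic hydrocarbons gives reactive esters that bind DNA. Ugt1a6a is a classic target of the aryl hydrocarbon receptor (AhR), and the liver is the main organ of both reactions.

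The arrays differed in sensitivity between and within tissues. The share of spots with a Cy5 signal well above background ranged from 47.6% to 55.2% in lung, from 33.2% to 45.2% in liver and from 18.1% to 50.2% in forestomach, where the 7 arrays of slide 1 had 39.0% to 50.2% and the others 18.1% to 33.4%. The 9 slides were each used for 1 tissue, so that slide and tissue cannot be told apart beyond the common reference. Position followed dose, since 50 of 56 arrays lay in the slide column that equals their dose step plus 1. The labelled tissues carried their defining markers: a hepatocyte list averaged 6.71 to 7.17 on the liver arrays, an alveolar type 2 list 5.52 to 5.97 on the lung arrays and a keratinocyte list 3.84 to 6.18 on the forestomach arrays. Markers of other cells were not evenly spread. Lung arrays of D3 mice 17 and 19 had skeletal muscle levels of 5.46 and 5.24 and keratinocyte levels of 3.89 and 4.31, and 10 of the 19 forestomach arrays carried high levels of glandular stomach genes, as described with the forestomach results.

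Sequences upstream of the start are shown for 6 members, chosen to set genes with and without a match side by side. RefSeq promoters (assembly GRCm38.p6, which is not the build named in the array files) were matched by symbol for all 9 genes, with 10 starts because Sult1b1 has 2. In the 250 bases before the start, 2 motifs were searched on both strands, GTTAAT, a half-site of the liver and gut factor HNF1, and GCGTG, the core of the AhR response element. GTTAAT or its complement was found at 5 of the 10 starts, and in 6.43% of all 32851 promoter windows of that length. GCGTG was found at 2 of the 10 starts, those of Sult1d1 (47 bases before the start) and the second start of Sult1b1 (196 bases before it), and in 28.2% of all windows. The sequences below run 5′ to 3′ and end at the base before the start. Capitals mark GTTAAT or ATTAAC, and the matches of the 2 motifs do not overlap in any of them. The first 3 genes hold a match and were higher in liver than in forestomach, Ugt1a6a holds one and was near the reference level in all 3 tissues, and Ugt2b5 and Sult1c2 hold none. Members without a match were also higher in liver than in forestomach, by 9.57 for Ugt2b5, 3.94 for Ugt2b34 and 2.42 for Sult1b1 on the log2 scale. The Ugt2b5 value is not an exact size, because no vehicle forestomach was above background for it. That of Sult1b1 depended on the setting, as given below. Whether any of these sites is bound was not measured.
Ugt2a3, chr5:87337196-87337445, minus strand: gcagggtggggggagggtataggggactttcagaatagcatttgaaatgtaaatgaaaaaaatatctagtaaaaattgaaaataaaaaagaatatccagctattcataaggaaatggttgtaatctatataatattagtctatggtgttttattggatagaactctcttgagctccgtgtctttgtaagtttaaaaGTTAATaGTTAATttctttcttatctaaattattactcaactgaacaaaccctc
Sult1d1, chr5:87569007-87569256, minus strand: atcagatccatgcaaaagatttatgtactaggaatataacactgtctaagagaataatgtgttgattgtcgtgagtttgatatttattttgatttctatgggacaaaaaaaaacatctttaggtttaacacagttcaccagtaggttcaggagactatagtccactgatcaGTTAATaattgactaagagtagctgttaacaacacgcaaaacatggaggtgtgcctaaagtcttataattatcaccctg
Sult1a1, chr7:126676419-126676668, minus strand: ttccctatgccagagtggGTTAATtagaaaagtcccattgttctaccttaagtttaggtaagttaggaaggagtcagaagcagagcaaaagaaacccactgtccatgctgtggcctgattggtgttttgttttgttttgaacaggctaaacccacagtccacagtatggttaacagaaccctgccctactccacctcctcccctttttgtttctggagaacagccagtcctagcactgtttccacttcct
Ugt1a6a, chr1:88134559-88134808, plus strand: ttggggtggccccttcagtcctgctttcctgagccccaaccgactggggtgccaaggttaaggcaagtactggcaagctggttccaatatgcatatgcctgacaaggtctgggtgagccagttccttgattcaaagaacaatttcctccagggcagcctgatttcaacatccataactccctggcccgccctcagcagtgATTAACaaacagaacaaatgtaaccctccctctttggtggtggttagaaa
Ugt2b5, chr5:87140341-87140590, minus strand: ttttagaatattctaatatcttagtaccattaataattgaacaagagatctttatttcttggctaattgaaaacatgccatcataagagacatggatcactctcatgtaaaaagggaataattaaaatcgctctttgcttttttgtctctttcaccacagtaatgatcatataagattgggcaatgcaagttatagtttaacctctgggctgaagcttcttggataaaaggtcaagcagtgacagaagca
Sult1c2, chr17:53845959-53846208, minus strand: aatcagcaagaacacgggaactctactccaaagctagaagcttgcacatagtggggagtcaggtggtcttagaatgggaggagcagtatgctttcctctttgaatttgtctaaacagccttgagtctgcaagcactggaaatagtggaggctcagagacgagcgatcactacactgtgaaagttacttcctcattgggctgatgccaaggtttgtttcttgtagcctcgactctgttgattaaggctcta

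Levels in vehicle mice were compared between tissues first. Of the 8 measured members, 7 were lower in lung than in liver, 6 were higher in liver than in forestomach, and lung and forestomach differed in 5 of 7 tested, with 4 lower and 1 higher in lung (limma, adjusted p at most 0.05 and at least 1.5-fold). These counts stand against a wide background, because 46.0% of all probes tested differed between lung and liver (21.1% lower and 24.9% higher in lung), 41.0% between liver and forestomach (19.0% higher and 22.0% lower in liver) and 37.6% between lung and forestomach (18.2% lower and 19.3% higher in lung). The median difference of lung minus liver was −5.11 on the log2 scale over the 8 members, and that of liver minus forestomach was 3.90.

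**Figure D1:**
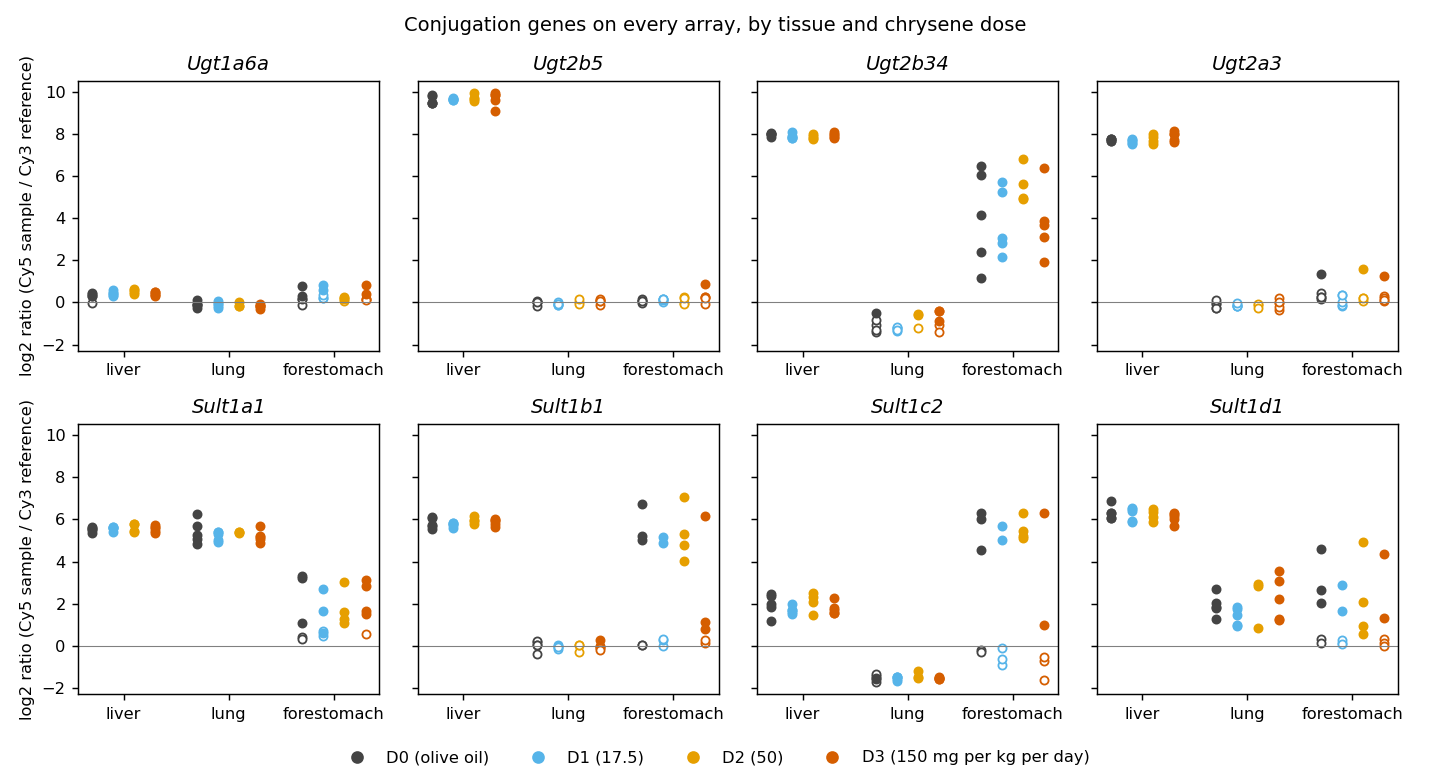
Log2 ratio of Cy5 (tissue RNA) over Cy3 (reference RNA) on the y axis for each of the 8 measured genes, with 1 point per array, grouped on the x axis by tissue and coloured by dose. Filled points are arrays where the spot was well above background and open points those where it was not. Each gene is shown with its brightest probe in that tissue. For Sult1a1 the liver points come from another probe than the lung and forestomach points, so they cannot be compared with them. Ugt2b5 lies between 9.10 and 9.95 in liver and near 0 in lung, while Sult1b1 and Sult1c2 split into a high and a low set in forestomach within D0, D1 and D3.

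Among the glucuronosyltransferases, Ugt2b5, a member of the UGT2B group that conjugates steroids and many xenobiotics, was measured on every liver array and hardly elsewhere. Its log2 ratio in the 5 vehicle livers was 9.49, 9.82, 9.51, 9.89 and 9.50, against −0.17 to 0.06 in vehicle lungs and −0.01 to 0.18 in vehicle forestomachs. The liver values did not overlap with those of either other tissue, and the probe was well above background on 0 of 18 lung arrays and 1 of 19 forestomach arrays. By the normalised Cy5 signal, Ugt2b5 was at least 456-fold higher in liver than in lung and at least 432-fold higher in liver than in forestomach. These bounds, like those below, set the dim tissue at the lowest measurable signal of each array, and their size depends on the normalisation. Before normalisation the Cy5 means over all doses were 19692 in liver, 70.3 in lung and 74.0 in forestomach. The measured log2 differences were −9.65 ± 0.11 (SE) for lung minus liver and 9.57 ± 0.11 for liver minus forestomach.

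Ugt2a3, the one member of the UGT2A branch studied, showed the same order. Vehicle livers had log2 ratios of 7.69, 7.79, 7.78, 7.68 and 7.78, a spread of 0.06 (SD, n = 5). Vehicle lungs lay between −0.28 and 0.11, with no lung array of any dose above background. Liver was at least 111-fold higher by the normalised Cy5 signal. Before normalisation the Cy5 means over all doses were 4529 in liver and 73.9 in lung. In vehicle forestomach the ratios were 0.18, 1.35, 0.43, 0.28 and 0.24, and 1 array was above background. The measured difference of liver minus forestomach was 7.25 ± 0.19 (SE), which is not an exact size because 4 of 5 forestomach spots were at background. The lower level in lung than in forestomach (−0.60 ± 0.19, bound at least 1.16-fold) rests on few measurable spots, and its fold fell below the limit with slide as a random block (−0.58).

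Ugt2b34 was the only member of the UGT2 family that was measured on every forestomach array. Vehicle livers had log2 ratios of 8.06, 7.88, 7.99, 8.02 and 8.02, and vehicle forestomachs 2.38, 6.48, 6.07, 1.18 and 4.15. In vehicle lungs the ratios were −1.08, −1.38, −1.33, −0.83 and −0.51, of which 1 was above background. The 3 tissues did not overlap. With 4 of 5 vehicle lungs at background, the differences against lung are not exact sizes, and they were −9.02 ± 0.62 (SE) for lung minus liver, −5.08 ± 0.62 for lung minus forestomach and 3.94 ± 0.62 for liver minus forestomach. The wide forestomach values made these sizes depend on single vehicle mice, with the calls kept. Leaving out mouse 4 gave −5.84 for lung minus forestomach and 3.22 for liver minus forestomach, and leaving out mouse 2 gave −4.38 and 4.58.

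Ugt1a6a, which conjugates planar phenols, was the exception. Its log2 ratio in vehicle livers was 0.45, 0.30, 0.41, −0.03 and 0.31, in vehicle lungs 0.12, −0.11, −0.08, −0.14 and −0.28, and in vehicle forestomachs 0.15, 0.30, −0.11, 0.15 and 0.81. The ranges overlapped. Only 2 of the 5 vehicle forestomachs were above background, so differences against forestomach are not exact sizes. Lung was lower than liver by a 1.31-fold difference (−0.39 ± 0.12, SE, limma adjusted p = 0.0039) and lower than forestomach by 1.28-fold (−0.36 ± 0.12), both under the fold limit. Signals before normalisation ran the other way for lung and liver, as given with the channels below. Liver minus forestomach was 0.03, with a 95% interval from −0.21 to 0.27, and did not pass the test. The UGT1A enzymes are read from 1 locus with shared 3′ exons, and probe positions are not given in the sources used here, so a probe named for Ugt1a6a may also see related transcripts.

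Among the sulfotransferases, Sult1d1, which acts on catecholamines and eicosanoids in rodents, was measured on every liver and lung array. Its log2 ratio was 6.31, 6.08, 6.31, 6.06 and 6.89 in vehicle livers, 1.81, 1.27, 1.86, 2.05 and 2.72 in vehicle lungs and 0.33, 4.61, 2.03, 0.11 and 2.65 in vehicle forestomachs. Liver did not overlap with the other tissues, and lung and forestomach did. Sult1d1 was lower in lung than in liver by 4.39 ± 0.68 (SE) on the log2 scale, a 20.9-fold difference in ratio. The Cy3 spot of this probe was above background on 1 of 56 arrays, so its ratios rest on a reference at background, as do those of Ugt2a3 (0 of 56 arrays). The Cy3 spot was also at background for Ugt2b5 on all 18 lung and 19 forestomach arrays and for Sult1b1 on all 18 lung arrays. In forestomach the Cy3 spot of Sult1b1 was above background on 6 of 19 arrays. For the Sult1a1 probe used for dose in lung and forestomach it was on 5 of 18 and 7 of 19 arrays. The difference of lung minus forestomach, 0.00 ± 0.68 with a 95% interval from −1.38 to 1.37, did not pass the test. It is not an exact size, because 3 of the 5 vehicle forestomachs were above background. A second Sult1d1 probe was well above background on 14 liver arrays only and gave a smaller difference of lung minus liver (−0.97), called in the same direction.

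Sult1b1, a sulfotransferase of phenols and thyroid hormones that is typical of liver and gut, was close to the floor in lung, where 1 of 18 arrays was above background. Vehicle livers had log2 ratios of 5.71, 5.53, 6.11, 5.74 and 6.07, and vehicle forestomachs 0.05, 6.72, 5.04, 0.04 and 5.22. The forestomach values fell on both sides, 2 of them at the lung level and 1 of them above every vehicle liver. Liver was at least 34.8-fold higher than lung, and forestomach at least 7.66-fold higher than lung. The forestomach bound comes from the mean of a divided group, and the measured difference of lung minus forestomach (−3.41) ranged from −4.30 when mouse 1 was left out to −2.64 when mouse 2 was, with the call kept. Leaving out mouse 4 also moved it by over 1.5 times in fold. The difference of liver minus forestomach (2.42 ± 0.92, SE, limma adjusted p = 0.020) depended on the setting: it was 0.17 without the forestomach arrays of lower glandular stomach level, a set seen in the data, and 1.33 with arrays centred on their median (adjusted p = 0.19). It also failed without mouse 1 (1.61) or mouse 4 (1.60), with normexp background correction (2.00, adjusted p = 0.051), with the spread from these 2 tissues (0.055) and with vehicle arrays only (0.056).

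Sult1c2, known from stomach and kidney, was the only member with a higher mean in vehicle forestomach than in vehicle liver. Its log2 ratio was −0.20, 6.32, 6.02, −0.30 and 4.56 in vehicle forestomachs, 2.35, 1.19, 1.85, 2.00 and 2.44 in vehicle livers and −1.71, −1.56, −1.42, −1.33 and −1.52 in vehicle lungs. Only 2 of the 5 vehicle lungs were above background, so the differences against lung are not exact sizes. Lung lay below both other tissues without overlap, by −3.47 ± 1.04 (SE) against liver and −4.79 ± 1.05 against forestomach, and the first was −2.03 with median centring and did not pass (limma adjusted p = 0.10). The difference against forestomach kept its call but ranged from −5.73 when mouse 4 was left out to −4.02 when mouse 2 was, and leaving out mouse 1 or mouse 3 also moved it by over 1.5 times in fold. Liver minus forestomach was −1.32 ± 1.05, with a 95% interval from −3.42 to 0.79, and did not pass the test, but its sign and call depended on which forestomach arrays were fitted, as given with the glandular genes.

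Sult1a1, the main phenol sulfotransferase, was well above background on every liver and lung array. It had 2 probes, and they disagreed on how far lung and liver differ. With the probe that is brightest over all arrays, vehicle livers averaged 5.52 ± 0.10 (SD, n = 5), vehicle lungs 4.60 ± 0.21 and vehicle forestomachs 1.67 ± 1.37. Lung minus liver was −0.93 ± 0.36 (SE, limma adjusted p = 0.021), an SE that includes the forestomach spread. This difference turned to 0.10 when arrays were centred on their median. It did not pass with only the vehicle arrays of the 3 tissues (adjusted p = 0.086). With the other probe, livers averaged 8.93 ± 0.08 (SD, n = 5), lungs 5.42 ± 0.58 and forestomachs 1.68 ± 1.49, and lung minus liver was −3.51. In the dose results below, the first of these probes stands for liver and the other for lung and forestomach. Both probes placed lung above forestomach, by 2.92 and 3.75 on the log2 scale, which are not exact sizes because 3 of the 5 vehicle forestomachs were above background for either probe.

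The channels show where the probes part. The Cy5 signal, which carries the tissue RNA, was nearly the same for both, with means of 19026 and 18608 in liver, 3288 and 3316 in lung and 244 and 245 in forestomach. The Cy3 signal, which carries the same reference RNA on every array, was 973, 109 and 62.2 in liver, lung and forestomach for the first probe and 118, 57.6 and 52.6 for the second. The reference signal of the first probe was highest in the tissue where its Cy5 signal was highest. The part of this Cy3 pattern in the tissue differences of the other members was not tested. Cy3 means in liver and lung were 70.9 and 40.8 for Ugt2b5, 179 and 111 for Ugt2b34 and 253 and 175 for Sult1c2, whose Cy3 mean was highest in forestomach (364), the tissue of its highest Cy5 mean (6025). For Ugt1a6a the Cy5 means were 123 in lung and 115 in liver, and the Cy3 means 84.4 and 123. On the log2 scale the means were 6.94 (Cy5) and 6.39 (Cy3) in lung and 6.83 and 6.93 in liver. Before normalisation Cy5 thus lay above Cy3 in lung and below it in liver, the opposite order of the normalised ratios.

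**Figure D2:**
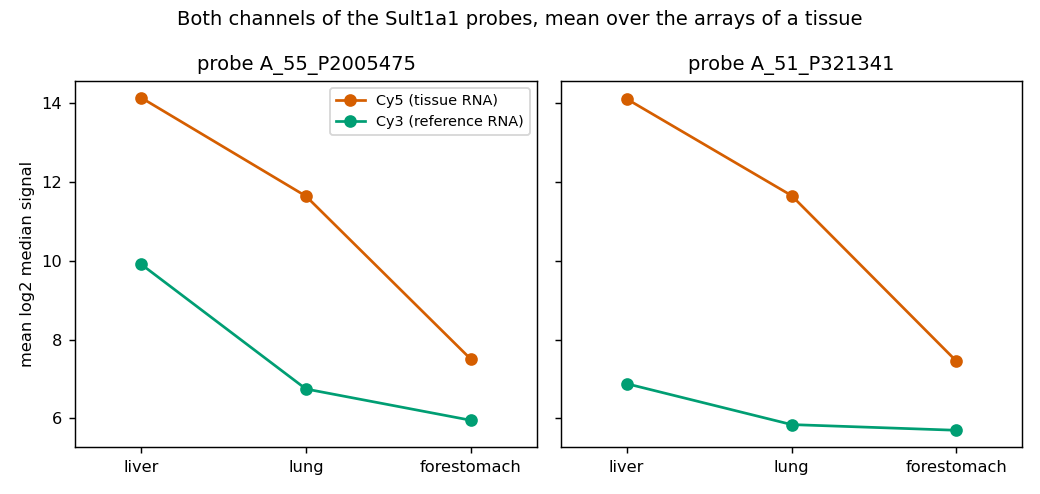
Mean log2 median signal (y axis) of the Cy5 channel, which holds the tissue RNA, and of the Cy3 channel, which holds the reference RNA, for the 2 Sult1a1 probes over the 19 liver, 18 lung and 19 forestomach arrays (x axis). The Cy5 lines of both probes are nearly the same, whereas the Cy3 mean falls from 9.91 in liver to 5.95 in forestomach for the first probe and from 6.88 to 5.70 for the second.

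Of 11 further UGT genes tested between lung and liver, 9 were lower in lung and 0 higher, and of 6 further SULT genes, 4 were lower and 0 higher, where 21.1% of all probes were lower in lung. Between liver and forestomach, 8 of 10 further UGT genes were higher in liver and 0 lower, and 3 of 6 further SULT genes were higher and 2 lower, where 19.0% of all probes were higher in liver and 22.0% lower. Between lung and forestomach, 2 of 5 genes of each list were lower in lung and 0 higher, where 18.2% of all probes were lower. Ugt2b37 and Ugt2b1, close relatives of Ugt2b5, had log2 ratios of 8.43 and 8.39 in vehicle livers and were not well above background on any vehicle array of lung or forestomach. Ugt2b38 (7.75) and the bile acid sulfotransferase family member Sult2a8 (7.72) were also high in liver, against 0.01 and 0.05 in lung. UGT2B genes are alike in sequence, and signal shared between their probes cannot be told apart here. Sult2b1, a sulfotransferase of cholesterol in squamous epithelium, ran the other way, with 3.94 ± 1.18 (SD, n = 5) in vehicle forestomach, −0.37 ± 0.27 in lung and −0.86 ± 0.12 in liver, where no vehicle array was above background. Sult1e1, the oestrogen sulfotransferase, was 2.91 ± 1.46 in forestomach and −0.04 ± 0.08 in lung, and Ugt1a10 was 0.77 ± 0.55 in forestomach and −1.64 ± 0.14 in lung.

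Genes that supply the donors and regulate the members were also counted. Of 6 cofactor genes, 5 were lower in lung than in liver and 1, the PAPS synthase Papss1, was higher (−0.64 ± 0.10 in lung and −1.46 ± 0.28 in liver, SD, n = 5). The other PAPS synthase, Papss2, was 5.07 ± 0.23 in liver and 1.68 ± 0.19 in lung, and Ugdh, which makes UDP-glucuronic acid, was 0.29 ± 0.20 and −2.06 ± 0.07. Of 9 regulators, 5 were lower in lung than in liver and 2, Ahr and Nfe2l2, were higher. Of all probes, 21.1% were lower in lung than in liver and 24.9% higher. Between liver and forestomach, 6 of 9 regulators were higher in liver and 1 lower, and 4 of 6 cofactor genes were higher and 1 lower. Of all probes, 19.0% were higher in liver there and 22.0% lower. Hnf4a, a regulator of liver and gut genes, was 4.41 ± 0.08 in liver, 2.53 ± 2.29 in forestomach and −0.10 ± 0.09 in lung, and lung minus forestomach was −2.64 ± 0.68 (SE).

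The effect of chrysene on the members was then tested against vehicle in each tissue. No member passed both limits at any dose in any tissue by limma, in 8 members tested in liver, 5 in lung and 7 in forestomach, and none did by the methods' Fs test. Without adjustment, 1 member was at the 0.05 limit, Ugt1a6a in liver at D2 by either tool, and 0 in every other comparison of a dose with D0. The background was low as well. Of all probes tested, 0% passed at each dose in liver and at D1 and D2 in lung and forestomach, 0.127% passed at D3 in lung and 0.00728% at D3 in forestomach. At the unadjusted limit the shares were 3.61%, 3.79% and 4.79% in liver at D1, D2 and D3, 5.88%, 6.12% and 16.2% in lung, and 4.16%, 7.53% and 9.24% in forestomach. A dose trend was called for 0 members, against 0% of probes in liver, 0.169% in lung and 0.0400% in forestomach, and 0 members reached the unadjusted trend limit, against 5.43%, 17.3% and 9.18% of probes.

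**Figure D3:**
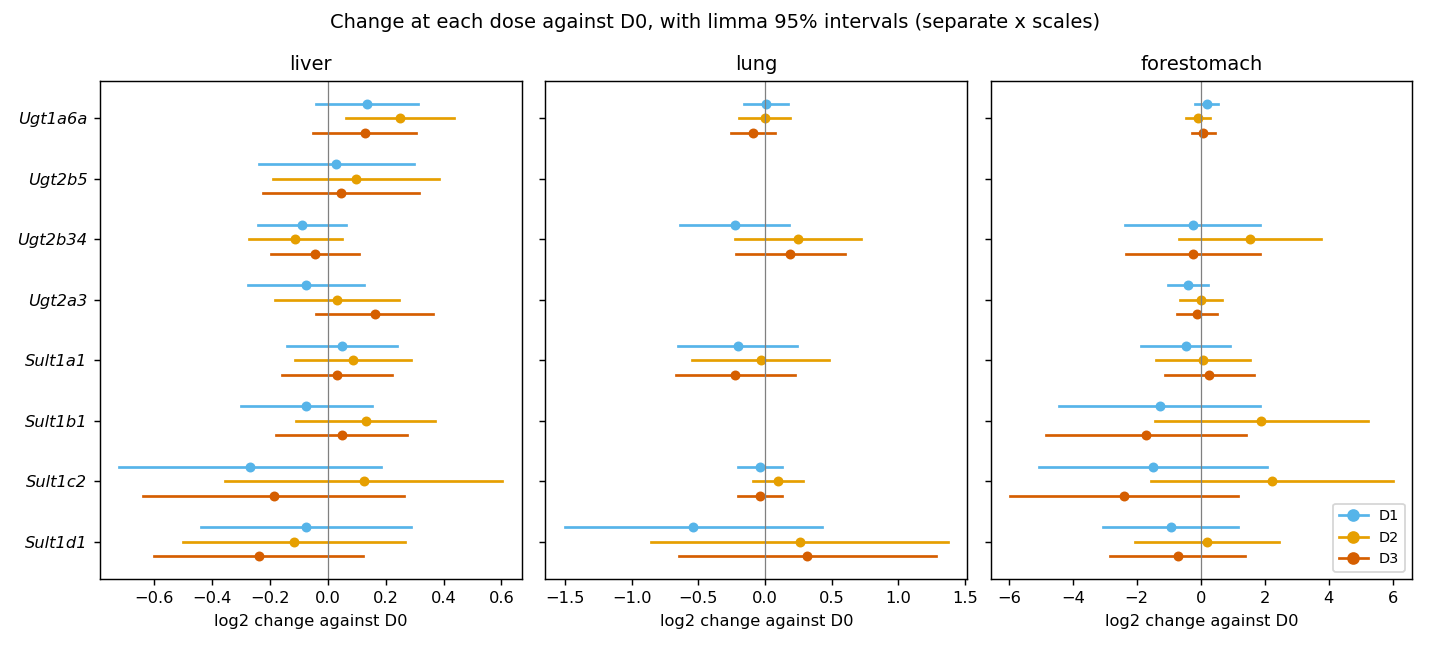
Log2 change of each dose against D0 (x axis, with its own scale per tissue) for each member tested (y axis), with the limma estimate as a point and its 95% interval as a line. Intervals are narrow in liver and reach several log2 units in forestomach, and the only interval that leaves out 0 is that of Ugt1a6a at D2 in liver, from 0.06 to 0.44.

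In liver, where each member was measured on nearly every array, the intervals were narrow. Ugt1a6a had log2 ratios of 0.52, 0.66, 0.57 and 0.42 in D2 livers against −0.03 to 0.45 in D0, and 3 of the 4 D2 values lay above every D0 value. The change was 0.25 ± 0.09 (SE, limma adjusted p = 0.998), a 1.19-fold rise that did not pass the test, and at D3 it was 0.13 with a 95% interval from −0.05 to 0.30. Ugt2b5 changed by 0.04 at D3, with an interval from −0.23 to 0.31, and Ugt2b34 by −0.05, with an interval from −0.20 to 0.11. These intervals leave out a 1.5-fold change in either direction.

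The sulfotransferases in liver were similar. Sult1a1 changed by 0.03 at D3 (95% interval −0.16 to 0.22) and Sult1b1 by 0.05 (−0.18 to 0.27). Sult1d1 was 6.24, 6.31, 6.03, 5.70 and 6.17 in D3 livers, and its change of −0.24 had an interval from −0.60 to 0.12, which does not leave out a 1.5-fold fall. Sult1c2 changed by −0.19 (−0.64 to 0.26). Ugt2a3 had 3 of 5 D3 livers above every D0 value, with ratios of 7.99, 8.15, 8.00, 7.75 and 7.64, and a change of 0.16 (−0.04 to 0.36) that did not pass the test. Over the 8 members the median change at D3 was 0.04, and over all 24692 probes tested it was −0.01.

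In lung, the D3 ratios of Ugt1a6a were −0.19, −0.08, −0.30, −0.18 and −0.19, within or just below the D0 range of −0.28 to 0.12, and the change at D3 was −0.09 (95% interval −0.26 to 0.08). Sult1a1 changed by −0.22 (−0.67 to 0.23) and Sult1c2, measured on 9 of 18 lung arrays, by −0.04 (−0.20 to 0.13). Cyp1a1, the classic AhR target, had levels of 1.66 ± 0.78 (SD, n = 5) at D0 and 0.66 ± 0.29 at D3 in lung, a difference of −0.998 ± 0.279 (SE, limma adjusted p = 0.13) that did not pass the test. No gene of the lists of further UGT and SULT genes, cofactor supply, conjugate hydrolysis and export, regulators and AhR targets passed both limits at any dose or for the trend in any tissue. At D3 in lung the unadjusted limit was reached by 4 of 6 cofactor genes (3 upward) and by 3 of 5 AhR targets, where 16.2% of all probes reached it. Of these 3 targets Cyp1a1 had the lower value at D3, while Ahrr, the AhR repressor, differed by 0.44 and Nqo1, a quinone reductase, by 0.55, 2 genes named after their values were seen. At the lower doses 2 AhR targets were higher and 1 lower at this limit at D1, and 1 higher and 1 lower at D2. Of all probes, 5.88% and 6.12% reached it there. The median difference at D3 in lung was 0.34 over the AhR targets and −0.03 over all probes. Levels of other cells also differed in D3 lungs. A list of 7 adipocyte genes had a median of 0.81 (0.23 to 2.11) in D0 and 2.19 (0.84 to 3.65) in D3. D3 mice 17 and 19 carried the skeletal muscle and keratinocyte levels given above. The part of these cells in the D3 differences was not tested.

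Lung Sult1d1 and Ugt2b34 varied together with genes of the conducting airways. Sult1d1 was 1.81, 1.27, 1.86, 2.05 and 2.72 in D0, 1.48, 1.76, 1.84, 1.00 and 0.94 in D1, 0.86, 2.83 and 2.91 in D2 and 3.06, 3.57, 1.20, 2.20 and 1.26 in D3. D2 and D3 each held arrays above and below the D0 range, and the change at D3 was 0.32 with a 95% interval from −0.65 to 1.28. Ugt2b34 lay between −1.38 and −0.41 in lung, was above background on 6 of 18 arrays, and was highest in D3 mice 16 and 17.

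The airway list holds 7 measured genes of club, secretory and ciliated cells (Scgb1a1, Scgb3a1, Cyp2f2, Bpifa1, Foxj1, Tekt1 and Dnah5), all well above background on all 18 lung arrays. Its mean was lowest in D2 mouse 12 (4.31) and D3 mouse 18 (4.33), and highest in D2 mouse 15 (6.18) and D3 mouse 17 (6.17). After the dose-group means were removed, Sult1d1 followed the list with r = 0.86 and rho = 0.86, and Ugt2b34 with r = 0.84 and rho = 0.87 (n = 18, permutation p = 1e-05 each, the smallest 100000 permutations can give, adjusted p = 0.00023 over 46 relations computed). Here and below, the permutations reorder deviations across dose groups and do not count the means removed. Their p-values therefore tend to be too small. Without the 2 arrays farthest from the median of the list r was 0.82 and 0.79, with slide means also removed it was 0.86 and 0.84, and leaving out each mouse gave 0.80 to 0.90 and 0.80 to 0.88. The other lung members did not show this: r was 0.05 for Ugt1a6a, −0.29 for Sult1a1 and −0.31 for Sult1c2, and none of these passed.

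**Figure D4:**
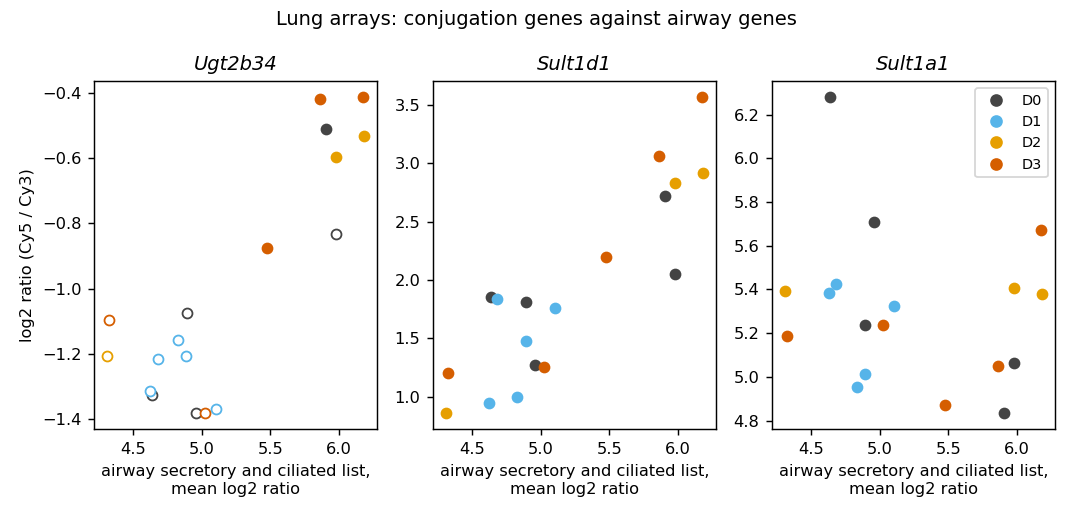
Log2 ratio of Ugt2b34, Sult1d1 and Sult1a1 (y axes) on each of the 18 lung arrays against the mean log2 ratio of 7 airway secretory and ciliated genes (x axis), coloured by dose, with open points for spots not well above background. Ugt2b34 and Sult1d1 climb from left to right over an airway level of 4.31 to 6.18, and Sult1a1 does not.

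In forestomach the members varied most, and the variation lay within the dose groups. Sult1c2 was 6.32, 6.02 and 4.56 in D0 mice 2, 3 and 5 and −0.20 and −0.30 in D0 mice 1 and 4. At D1 it was 5.67 and 5.03 in mice 8 and 10 and −0.93, −0.64 and −0.12 in the other 3, at D2 it was 5.14 to 6.30 in all 4 mice, and at D3 it was 6.32 in mouse 19 and −1.65 to 1.00 in the other 4. No array fell between 1.00 and 4.56. The difference between the sets within one dose group was larger than any difference between dose means, and the change at D3 against D0 was −2.40 with a 95% interval from −5.96 to 1.17.

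Sult1b1 divided the same arrays. It was 6.72, 5.04 and 5.22 in D0 mice 2, 3 and 5, 4.90 and 5.17 in D1 mice 8 and 10, 5.33, 7.07, 4.05 and 4.78 in the D2 mice and 6.17 in D3 mouse 19. On the other 9 arrays it lay between 0.01 and 1.14, and 2 of those were above background. Its change at D2 was 1.89 (95% interval −1.43 to 5.22) and at D3 −1.71 (−4.85 to 1.43), so that the intervals leave out neither a large rise nor a large fall.

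Genes of the glandular stomach, the acid- and mucus-secreting part that adjoins the squamous forestomach, marked the same split. The mean of 11 such genes (Gkn1, Gkn2, Gkn3, Tff1, Tff2, Muc5ac, Pgc, Atp4a, Atp4b, Cblif and Chia1) was 5.51 to 7.12 on 10 arrays and 0.24 to 1.93 on the other 9. All 11 genes were above background on all 10 of the higher arrays. On the other 9, Gkn1, a gastric surface mucous protein, and Atp4a, the proton pump subunit, were above background on 0 arrays, while Tff1 was on 9 and Gkn2 on 8. The higher set held 3 of 5 D0, 2 of 5 D1, 4 of 4 D2 and 1 of 5 D3 arrays. Members measured on these sets stood as follows, as a description with no test, because the sets were seen in the data. Sult1c2 had a median of 5.55 on the 10 arrays and −0.52 on the 9, Sult1b1 5.20 and 0.26, Ugt2b34 5.67 and 2.84, Sult1d1 2.35 and 0.13, Sult1a1 2.14 and 0.60, and Ugt2a3 0.36 and 0.10, whereas Ugt1a6a was 0.24 and 0.19 and Ugt2b5 0.11 and 0.16. The ranges of Sult1c2, Sult1b1 and Ugt2b34 did not overlap between the sets. Tissue differences in vehicle mice were fitted again without either set, alternatives added after seeing the data. These values describe the sets and carry no test. Without the 9 lower arrays, liver minus forestomach was 0.17 for Sult1b1 and −3.67 for Sult1c2. Without the 10 higher arrays, only the forestomachs of mice 1 and 4 remained as vehicle, where Sult1b1, Sult1c2 and Sult1d1 were not well above background, so the differences from them are not exact sizes. Liver minus forestomach was then 5.79 for Sult1b1 and 2.21 for Sult1c2, and lung minus forestomach was 1.72 for Sult1d1. No member was called for dose with the list as a covariate. Without the higher arrays only Sult1a1 and Ugt2b34 could be tested, at D1 and D3, and neither was called, and no dose fit was run without the lower arrays.

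**Figure D5:**
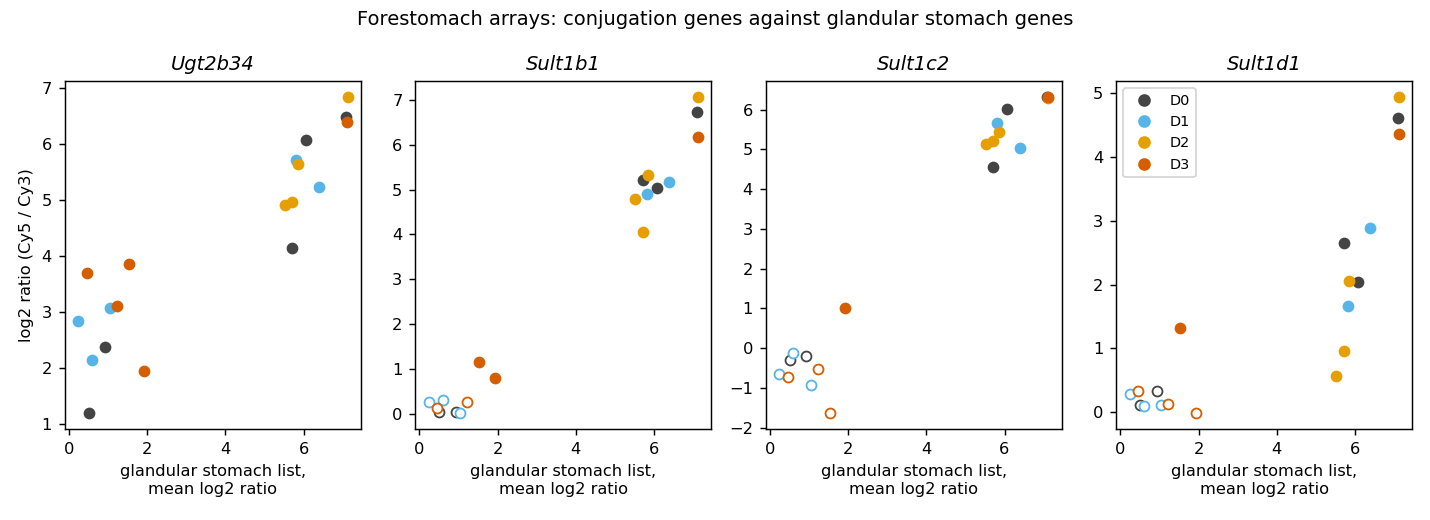
Log2 ratio of Ugt2b34, Sult1b1, Sult1c2 and Sult1d1 (y axes) on each of the 19 forestomach arrays against the mean log2 ratio of 11 glandular stomach genes (x axis), coloured by dose, with open points for spots not well above background. The arrays form 2 sets along the x axis, at 0.24 to 1.93 and 5.51 to 7.12, and every dose except D2 has arrays in both.

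Because of that gap no pooled correlation with the list was computed in forestomach. Within the 10 higher arrays, with dose-group means removed and the lone D3 array left out, Sult1d1 followed the glandular list with r = 0.94 and rho = 0.82. The permutation p over all orders of the 9 deviations was 0.00047 and 0.011 (adjusted 0.0073 and 0.079). These orders cross dose groups, so such p-values tend to be too small. Ugt2a3 was above background on 3 of the 10 higher arrays, 1 of which is the D3 array left out. Its values, mostly of spots at background, were r = 0.95 and rho = 0.77 (adjusted permutation p = 0.011 and 0.082). For Sult1b1 they were r = 0.91 and rho = 0.80 (0.014 and 0.079), and for Ugt2b34 r = 0.81 and rho = 0.85 (0.029 and 0.070). These relations rest on few arrays. Without the 2 arrays farthest from the median, r was 0.62 for Sult1d1, 0.24 for Ugt2a3, 0.24 for Sult1b1 and 0.40 for Ugt2b34, and none passed. The forestomachs of D0 mouse 2, D2 mouse 12 and D3 mouse 19 had the highest glandular levels and also the highest Sult1d1 (4.61, 4.95 and 4.36) and Ugt2a3 (1.35, 1.57 and 1.26). All 3 arrays lay on slide 1, where 39.0% to 50.2% of spots were above background. With slide means removed, r with the glandular list in the higher set was 0.94 for Sult1d1 and 0.92 for Ugt2a3. The part of the slide in these levels was not tested. The array of mouse 19 also had a pancreatic acinar level of 5.02, against 1.67 or less on every other forestomach array. Within the 9 lower arrays no member passed with this list, and r lay between −0.29 and 0.53. With slide means removed, r of Sult1c2 was 0.98 in the higher set (adjusted permutation p = 0.00044) and 0.84 in the lower set (0.025). In the lower set Sult1c2 was above background on 1 of 9 arrays. For Ugt1a6a in the higher set r was −0.92 (0.0026). This setting removes dose-group and slide means from 9 arrays, and the permutations do not count them. These p-values are therefore too small, and nothing is read from them.

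The change at D3 was compared between tissues for each member. No member differed by limma, of 8 tested for lung against liver, 7 for lung against forestomach and 8 for liver against forestomach, and 0 reached the unadjusted limit. Of all probes, 0%, 0.707% and 0.0777% passed both limits, and 5.25%, 12.9% and 9.94% the unadjusted one. For Sult1c2 the difference in D3 change of liver minus forestomach was 2.21 with a 95% interval from −0.77 to 5.18, which shows how little the forestomach arrays bound, and for Ugt1a6a of lung minus liver it was −0.22 with an interval from −0.56 to 0.12. Without the 10 forestomach arrays of higher glandular level, an alternative added after seeing the data that leaves 2 D0 and 4 D3 forestomach arrays, 10.3% of all probes differed in D3 change between liver and forestomach and 9.12% between lung and forestomach. The members' values in that fit describe a set seen in the data and carry no test. For Sult1a1 the D3 change of liver minus forestomach was −1.40 and that of lung minus forestomach −1.71, against −0.38 and −0.68 with all 19 arrays. For Ugt2b34 these differences were −1.42 and −1.18, against 0.20 and 0.44 with all 19 arrays, a change of direction.

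Members were also set beside a list of 10 clock output genes, which track circadian time. The list itself differed between dose groups. At D2, 7 of 10 tested in lung (median change 0.66) and 4 of 9 in liver (0.65) were higher at the unadjusted limit, and none passed both limits. Of all probes, 6.12% and 3.79% reached the unadjusted limit. The part of this in the member values was not tested. Of the 10 genes, 6 were above background on every liver array, 9 on every lung array and 3 on every forestomach array, and 1 was on none in liver and 1 on none in forestomach. In liver, Sult1b1 followed the list with r = 0.58 and rho = 0.54 and Sult1a1 with r = −0.62 and rho = −0.59 (n = 19, permutation p = 0.010 and 0.0049, adjusted 0.043 and 0.027 for r and 0.079 and 0.077 for rho). Neither passed without the 2 arrays farthest from the median (r = 0.52 and −0.37) or with slide means removed (0.46 and −0.27). In forestomach, 3 relations with this list passed for r and none for rho, those of Sult1d1 in the higher set (r = −0.84) and of Sult1a1 (r = −0.85) and Sult1c2 (r = 0.79) in the lower set (n = 9 each, permutation over all orders). In that lower set Sult1c2 was above background on 1 array and Sult1a1 on 5, so the Sult1c2 relation is mostly one of spots at background. With slide means removed r was −0.82 for Sult1d1, 0.02 for Sult1a1 and 0.18 for Sult1c2. In lung no member passed, although Ugt1a6a did with slide means removed (r = 0.61). The permutation p-value of that setting is too small, because it does not count the dose-group and slide means removed.

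The genes most like each member were named by the correlation of log2 ratios, given as a description. Over all 56 arrays, among 11756 genes measured in each tissue, Ugt2b5 was nearest to Sult2a8 (r = 1.00) and Slc26a1 (1.00), Ugt2a3 to Pipox and Gcdh (1.00 each), Sult1b1 to Hnf4a (0.99) and Ces2c (0.99) and Ugt2b34 to Gjb1 (0.99) and Naprt (0.98). These points share their tissue, which sets most of the correlation. For Sult1a1 the nearest were Tspan12 and Ces1d (0.98 each), for Sult1d1 Dsg2 and Cmbl (0.97 each), for Sult1c2 Slc39a11 (0.93) and Rab3b (0.91) and for Ugt1a6a Sntg2 (0.88) and Zranb1 (0.87). Within forestomach, after removal of dose-group means, Sult1c2 was nearest to Ctse (1.00), the gastric aspartic protease cathepsin E, and Mal (0.99) over 19 arrays, a correlation that spans the gap between the 2 sets. Within liver, Sult1a1 was nearest to Ftcd and Agxt (0.89 each), Sult1d1 to Abca6 (0.86) and Esrrg (0.85), Sult1b1 to Fbxo34 (0.84) and Upp2 (0.83), Ugt2b34 to Krtap5-5 (0.84) and Galnt4 (0.78), Ugt2b5 to Fbp1 (0.81) and Apeh (0.79), Ugt1a6a to F2 (0.81) and Prox1 (0.79) and Ugt2a3 to Vsir (0.80) and C6 (0.77), all over 19 arrays.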

How the data were processed

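The authors deposited a table of log2 ratios (Cy5 to Cy3, by probe and array). According to their methods, median signals were LOWESS-normalised per array and no background was subtracted. Their scanner files give the intensity, as spot and background medians of each channel per the file headers, (Feature Extraction 10.7.3.1, build mm9) and other values, the 0 or 1 flags per spot. The table's scale and direction were checked against loess ratios computed from the scanner values (r 0.977 to 0.998, slope 0.952 to 0.996), and its column medians lay between −0.0456 and −0.0201. No column lacked a sample. Dyes were not swapped, so a probe's dye bias cancels only between arrays, and the number of arrays limits the precision.

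Groups, doses and mouse numbers came from the labels. After removal of 3671 control spots, 59305 spots gave 55681 probes, of which 26413 (47.4%) were named through RefSeq accessions in the reference table of GRCm38.p6. The probe with the highest mean Cy5 signal in the tissue (over all arrays for tissue comparisons) stood for a gene. Probes were tested where Cy5 was well above background on at least 3 arrays of a tissue and no spot of the fit was non-uniform (24692 in liver, 31448 in lung, 27491 in forestomach). Tests were limma 3.58.1 (R 4.3.3, lmFit and eBayes, two-sided) with Benjamini-Hochberg adjustment over all probes tested. A call was an adjusted p of at most 0.05 with at least 1.5-fold. The study's methods name MAANOVA, so its Fs test with 100 residual shuffles was an alternative. The other alternatives were the scanner ratios (loess, normexp with offset 50, median centring), 2 other filters, the second probe, slide, array column, array weights, list covariates, the dose in mg per kg, mouse and slide blocks, and leaving out each mouse. Scripts were tested on simulated data.

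Mouse numbers pair the tissues, which came from the same animals. Deviations of same-numbered arrays from their group means had a median correlation of 0.12 between lung and liver, while forestomach gave 0.02 with lung and 0.06 with liver. Arrays of a group are separate mice. The text names all listed members, the 4 pathway genes with the largest change past both limits per comparison, Cyp1a1 and the nearest genes by correlation. Papss1, Papss2, Ugdh, Ahr and Nfe2l2 were chosen after their values were seen, as were the promoters printed. The members and lists were chosen with earlier results of these data known.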

Additional observations from a re-analysis of the deposited data

Results flagged for a closer look

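Within a dose group, 6 of 75 groups of 4 or 5 arrays had 1 array whose gap to its nearest neighbour was too large a share of the group's range by Dixon's criterion, a criterion that chance meets in about 1 of 20 groups. The 1 group of 3 arrays, lung D2, was not tested. In forestomach, Ugt2a3 had 1 such array in each of 3 dose groups: D0 mouse 2 at 1.35 (others 0.18 to 0.43), D2 mouse 12 at 1.57 (others 0.07 to 0.23) and D3 mouse 19 at 1.26 (others 0.08 to 0.31). Sult1b1 in forestomach D3 had mouse 19 at 6.17, against 0.14 to 1.14 in the other 4. The glandular stomach levels and the shared slide of these forestomach arrays are given with the forestomach results, and their part in these values was not tested. In liver D1, Ugt2b34 was 8.13 in mouse 7 (others 7.82 to 7.90) and Sult1a1 was 5.41 in mouse 8 (others 5.58 to 5.64). No member had a D3 change in opposite directions without overlap in 2 tissues.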

How the results depend on the processing

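The number of members called for dose or trend was 0 in each tissue under every alternative run, including lung without mice 17 and 19, forestomach without the arrays of higher glandular level, and each mouse left out. Counts between tissues in vehicle mice stayed within 1.5 times of 7, 6 and 5, and leaving out each mouse gave 7 for lung and liver, 5 to 6 for liver and forestomach and 4 to 5 for lung and forestomach. With the mouse as a replicate block (paired tissues) no call changed, and Sult1a1 in lung minus liver stayed at −0.93. Sult1a1 reversed in sign for that difference with median centring (0.10), and its correlation with clock output in the lower forestomach set reversed with slide means removed (0.0166). The cause was not tested. The number of members with a different D3 change between tissues was 0 throughout, leaving out each mouse included, except without the forestomach arrays of higher glandular level, where it was 2 of 8 for liver and forestomach and 2 of 5 for lung and forestomach (Sult1a1 and Ugt2b34). In that fit 10.3% and 9.12% of all probes passed, and since the set was seen in the data, nothing is read from the count. Of the 46 correlations, 11 passed, by permutation p-values that tend to be too small because they do not count the dose-group means removed. Only 2 did without the 2 farthest arrays, a setting with fewer arrays, and leaving out each mouse gave 6 (without mouse 2) or 7 (without mouse 12) at the low end and 12 at the high end. Low spots limit the lung and forestomach values most, since a ratio near 0 at background is a bound and not a level.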
